A study of Mus musculus with 20 samples.

Results

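The genes described here are 10 members of the cAMP and calcium signaling machinery for which the striatum is known: Ppp1r1b, Pde10a, Pde1b, Gnal, Adcy5, Rgs9, Rasgrp2, Ptpn5, Arpp21 and Arpp19. They were chosen by name, with earlier results of these data known. Each was found through its Ensembl identifier among the 39179 genes counted in every mouse. Levels are given as CPM, the counts of a gene scaled to the size of its library. A gene was tested where 3 or more mice had over 1 CPM, which held for 14792 genes and for all 10 members. The striatum of 20 male mice was sequenced, with 1 library per mouse. The mice came from generation 17 of a selection experiment that began from an intercross of 8 inbred strains. The High-Active line had been bred for distance traveled in the home cage, and the Control line had been bred without selection. At about 6.5 months of age each mouse received an injection of saline or of d-amphetamine at 0.25 mg/kg, and the whole striatum of both sides was taken 2 h later. Each line was divided into 5 saline and 5 amphetamine mice, which makes 4 groups. Each line is a single population, so selection and random drift of allele frequencies cannot be told apart in any difference between the lines. Mice are named below by group and replicate, and the replicate number carries no pairing.

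Medium spiny neurons make up most of the neurons of the striatum, and they read dopamine largely through cAMP. Dopamine D1 receptors couple to the G protein subunit encoded by Gnal and raise cAMP, whereas D2 receptors couple to inhibitory G proteins and lower it. cAMP activates protein kinase A, and kinases and phosphatases then set the phosphorylation of proteins that regulate channels, receptors and transcription. Calcium entering through glutamate receptors acts on the same proteins through calmodulin, calcineurin and calcium-dependent phosphodiesterase. Amphetamine releases dopamine and so acts upstream of this machinery.

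Depth did not limit these genes. Gene counts summed to between 32388971 and 53710713 per mouse, and the smallest count of any member in any mouse was 3946 (Rasgrp2) while the largest was 70631 (Ppp1r1b). Together the 10 genes took between 0.625% and 0.949% of the counts of the genes tested. The sire and dam labels placed the 10 Control mice in 8 parent pairs and the 10 High-Active mice in 5, so that 9 High-Active and 4 Control mice had a full sibling in the study. The methods of the study give every mouse a family of its own, whereas the labels name shared sires and dams, and the labels were used here. Markers of medium spiny neurons were abundant in every library, with Penk, an enkephalin precursor, between 945 and 1647 CPM and Drd1, the D1 receptor, between 169.99 and 287 CPM. In bulk tissue, fewer cells of a type and less RNA per cell cannot be told apart. Markers of cortical excitatory neurons were also present and varied widely between libraries, as Slc17a7, a vesicular glutamate transporter, did from 74.5 to 679 CPM. The choroid plexus marker Ttr ran from 0.949 to 816 CPM, and the mean log2 CPM of 8 choroid plexus markers was over 3 in 4 mice (High-Active saline replicates 1 and 4, High-Active amphetamine replicate 3 and Control saline replicate 3). The line, amphetamine and interaction fits, the spread between mice, the correlations and the marker scores are also given for the other 16 mice. These were 9 Control and 7 High-Active mice, and the limit was chosen after seeing the data. The limit leaves out High-Active saline replicates 1 and 4, which were among the lowest 5 mice for all 10 members. Values of the 16 mice therefore differ from those of all 20 partly through which mice were left out.

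The genes lie on 8 mouse chromosomes in build GRCm38, with only Arpp21 and Arpp19 on chromosome 9 and Ppp1r1b and Rgs9 on chromosome 11 sharing one. Rasgrp2 spans chr19:6399340-6415216 on the plus strand, Arpp21 chr9:112065091-112235938 on the minus strand, Arpp19 chr9:75037614-75060313 on the plus strand and Rgs9 chr11:109225355-109298129 on the minus strand. Exons of Ppp1r1b, Gnal, Rasgrp2 and Arpp21 overlap exons of a gene on the opposite strand over 460, 852, 265 and 580 bases, which is 15.7%, 7.63%, 2.14% and 3.33% of their exonic length. The median count of the overlapping gene was 843 for Mppe1 opposite Gnal, 203 for 2900079G21Rik opposite Arpp21, 10.5 for 1700003D09Rik opposite Ppp1r1b and 2 for Gm14965 opposite Rasgrp2. The strand setting of the counting was not given in the sources used here. The other 6 genes share no exonic base with another annotated gene.

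Promoter windows of RefSeq on GRCm38.p6, running from 250 bases before to 50 bases after a transcript start, were given for 8 of the 10 genes in 22 windows. Ppp1r1b and Gnal had none. A cAMP response element is the site bound by the CREB family of transcription factors, and TGACG is its shorter form. On either strand this shorter form was found in 3 of the 22 windows, all of Arpp21, and in 20.8% of all 32851 windows. The full element TGACGTCA was found in 0 of the 22 windows and in 1.79% of all windows. The GC box GGGCGG, which is the core of the site of the Sp1 family, was found in 9 of the 22 windows, from 7 members, and in 35.7% of all windows. CCAAT was found in 9 of the 22 windows, from 4 members, against 37.4% of all windows. TATAAA was found in 2 of the 22, of Pde1b and Rgs9, against 13.6% of all windows. A match describes letters and is not evidence that a factor binds. The 250 bases before a start are shown for Arpp21 and Rasgrp2, the genes with the smallest adjusted p for the line difference, and for Rgs9, which lay closest to the threshold. Capitals mark TGACG in Arpp21, GGGCGG or its reverse complement in Rasgrp2 and the reverse complement of CCAAT in Rgs9.
Arpp21, chr9:112185950-112186199, minus strand: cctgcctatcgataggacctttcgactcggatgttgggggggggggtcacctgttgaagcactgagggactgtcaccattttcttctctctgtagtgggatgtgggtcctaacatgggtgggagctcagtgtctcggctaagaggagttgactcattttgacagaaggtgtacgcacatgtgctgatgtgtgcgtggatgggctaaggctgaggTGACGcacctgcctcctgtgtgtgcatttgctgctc
Arpp21, chr9:112217262-112217511, minus strand: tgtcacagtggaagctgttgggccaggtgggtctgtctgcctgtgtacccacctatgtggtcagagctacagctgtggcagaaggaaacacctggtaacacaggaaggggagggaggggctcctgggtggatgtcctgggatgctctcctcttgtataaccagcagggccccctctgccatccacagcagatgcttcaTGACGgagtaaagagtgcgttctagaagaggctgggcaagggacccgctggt
Rasgrp2, chr19:6399625-6399874, plus strand: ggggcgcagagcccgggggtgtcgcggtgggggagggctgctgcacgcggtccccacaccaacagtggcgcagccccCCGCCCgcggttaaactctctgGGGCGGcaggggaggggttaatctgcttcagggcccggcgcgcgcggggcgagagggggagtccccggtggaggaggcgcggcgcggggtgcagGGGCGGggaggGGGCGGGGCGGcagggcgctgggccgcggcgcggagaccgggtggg
Rgs9, chr11:109298182-109298431, minus strand: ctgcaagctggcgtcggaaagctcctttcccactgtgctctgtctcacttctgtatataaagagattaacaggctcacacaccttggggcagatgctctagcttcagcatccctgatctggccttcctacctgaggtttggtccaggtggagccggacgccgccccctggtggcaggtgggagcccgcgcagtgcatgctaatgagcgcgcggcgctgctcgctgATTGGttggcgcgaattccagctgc
The TGACG of the first and second Arpp21 sequences began 36 and 52 bases before the start. The Rasgrp2 sequence held 5 matches, which began between 173 and 41 bases before the start, with the nearest pair overlapping. The match in Rgs9 began 25 bases before the start.

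Levels between genes can be compared only per length, so CPM was divided by the kilobases of exon of each gene. The exons of all annotated transcripts of a gene were joined, so this length can exceed that of the transcripts present and lower the value. Ppp1r1b, which encodes DARPP-32, the dopamine- and cAMP-regulated inhibitor of protein phosphatase 1, was the most abundant member at 425 ± 63.7 CPM per kb (SD, n = 20). Pde1b, a calcium- and calmodulin-dependent phosphodiesterase, followed at 188 ± 26.5 and was below Ppp1r1b in all 20 mice. Adcy5, the main striatal adenylyl cyclase, came next at 139 ± 18.9, and Arpp19, a phosphatase inhibitor, followed it at 131 ± 21.1. These neighbors did not differ beyond their spread: Adcy5 was above Arpp19 in 15 of 20 mice. Ptpn5, the striatal-enriched tyrosine phosphatase STEP, had 109 ± 16.0 CPM per kb and Pde10a, the dual-specificity phosphodiesterase of medium spiny neurons, had 90.8 ± 16.0. Arpp21, also called RCS, came next with 67.3 ± 10.3 and stood above Gnal, at 64.2 ± 9.19, in only 11 of 20 mice. Rgs9, whose splice form RGS9-2 accelerates the GTPase of striatal G proteins, had 54.4 ± 10.1. Rasgrp2, a calcium- and diacylglycerol-regulated exchange factor for Rap1, had the lowest value at 13.4 ± 2.24 and was below Rgs9 in all 20 mice. Its joined exons held 12384 bases against 6390 for Rgs9, and its rank by the length of the transcripts present was not tested.

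**Figure D1:**
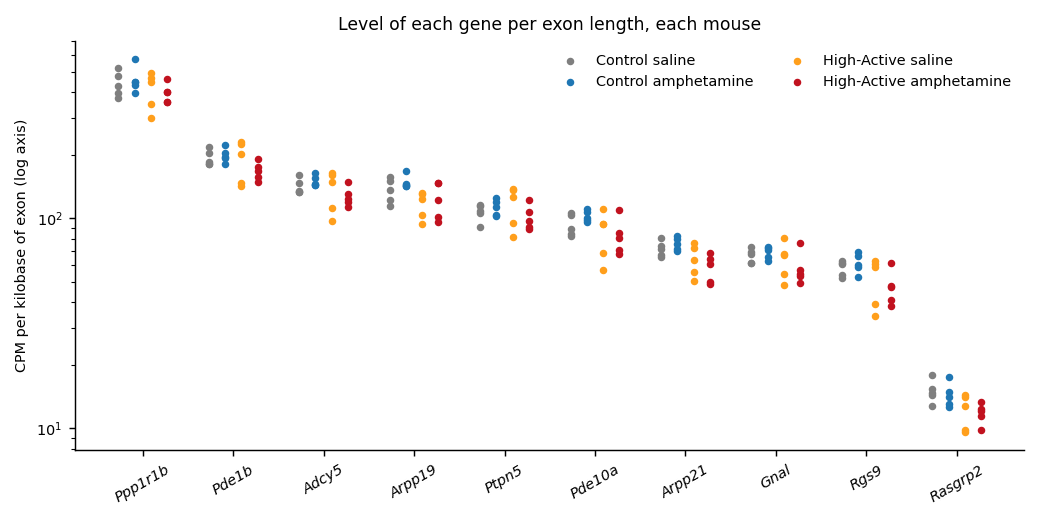
CPM per kilobase of exon on a log axis for each gene (x axis, in order of its mean) and each mouse (points, 5 per group, colored by group). By this measure, which joins the exons of all annotated transcripts, Ppp1r1b stands above and Rasgrp2 below all other members in every mouse. Adcy5 and Arpp19, and Arpp21 and Gnal, overlap.

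The first comparison asked how the striatum of the High-Active line differed from that of Control, averaged over both treatments. Of the 10 members, 3 were lower in High-Active mice at a false discovery rate (FDR) under 0.1 and none was higher. They were Rasgrp2, Arpp21 and Arpp19, with differences between 16.0% and 18.7%. Among all genes tested, 6.9% were called lower, 7.63% higher and 14.5% in either direction. An unadjusted p under 0.05 was found for 5 members, and for 26.1% of all genes. The log2 difference was below 0 for all 10 members, against 50.3% of all genes, and its median was -0.19 for the members and -0.00 for all genes. The members vary together across mice, as shown further on, so that their shared sign is not 10 separate observations.

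Rasgrp2 had 157, 191, 181, 179 and 222 CPM in Control saline replicates 1 to 5 and 185, 175, 156, 161 and 216 CPM in Control amphetamine replicates 1 to 5. It had 119, 178, 158, 122 and 174 CPM in High-Active saline replicates 1 to 5 and 142, 122, 153, 149 and 165 CPM in High-Active amphetamine replicates 1 to 5. All 10 High-Active mice were below the Control median and 6 were below every Control mouse, whereas 6 Control mice were above every High-Active mouse. The means were 182 ± 22.7 CPM in Control and 148 ± 21.6 CPM in High-Active mice (SD, n = 10 each). The log2 difference was -0.30 ± 0.09 (SE), or -18.7%, with a 95% confidence interval from -0.48 to -0.12 and an adjusted p of 0.0414 in edgeR's quasi-likelihood test with Benjamini-Hochberg adjustment.

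Arpp21 encodes a cAMP-regulated phosphoprotein that binds calmodulin and RNA. It had 1290.0, 1144, 1252, 1165 and 1413 CPM in Control saline replicates 1 to 5 and 1323, 1213, 1248, 1431 and 1393 CPM in Control amphetamine replicates 1 to 5. It had 968, 1266, 1099.6, 873 and 1326 CPM in High-Active saline replicates 1 to 5 and 1189, 845, 866, 1110.3 and 1061 CPM in High-Active amphetamine replicates 1 to 5. In 9 of 10 High-Active mice Arpp21 was below the Control median, and in 7 it was below every Control mouse. The log2 difference was -0.28 ± 0.08 (SE), or -17.7%, with an interval from -0.44 to -0.12 and an adjusted p of 0.0367 (edgeR).

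Arpp19, once phosphorylated by the Greatwall kinase, inhibits protein phosphatase 2A, and it is also a substrate of protein kinase A. It had 676, 750.1, 569.8, 608 and 780.1 CPM in Control saline replicates 1 to 5 and 727, 704, 714, 838 and 711 CPM in Control amphetamine replicates 1 to 5. It had 513, 649, 658, 468 and 611 CPM in High-Active saline replicates 1 to 5 and 732, 503, 477, 605 and 727 CPM in High-Active amphetamine replicates 1 to 5. The lines overlapped more than for Arpp21, with 4 High-Active mice below every Control mouse and 3 Control mice above every High-Active mouse. The log2 difference was -0.25 ± 0.09 (SE), or -16.0%, with an adjusted p of 0.0841 (edgeR). This call was fragile: the adjusted p passed 0.1 in 12 of the 20 fits that each left out 1 mouse, and it reached at most 0.152.

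Rgs9 had the second largest difference in size and missed the threshold. It had 333, 392, 389, 342 and 399 CPM in Control saline replicates 1 to 5 and 421, 377, 338, 384 and 442 CPM in Control amphetamine replicates 1 to 5. It had 219, 386, 374, 250.1 and 401 CPM in High-Active saline replicates 1 to 5 and 301, 259.9, 305, 244 and 391 CPM in High-Active amphetamine replicates 1 to 5. The High-Active mice divided into 6 below every Control mouse and 4 inside the Control range. The log2 difference was -0.29 ± 0.11 (SE), with an interval from -0.51 to -0.06 and an adjusted p of 0.102 (edgeR). Leaving out 1 mouse brought the adjusted p under 0.1 in 6 of 20 fits, down to 0.0495 without High-Active amphetamine replicate 5.

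**Figure D2:**
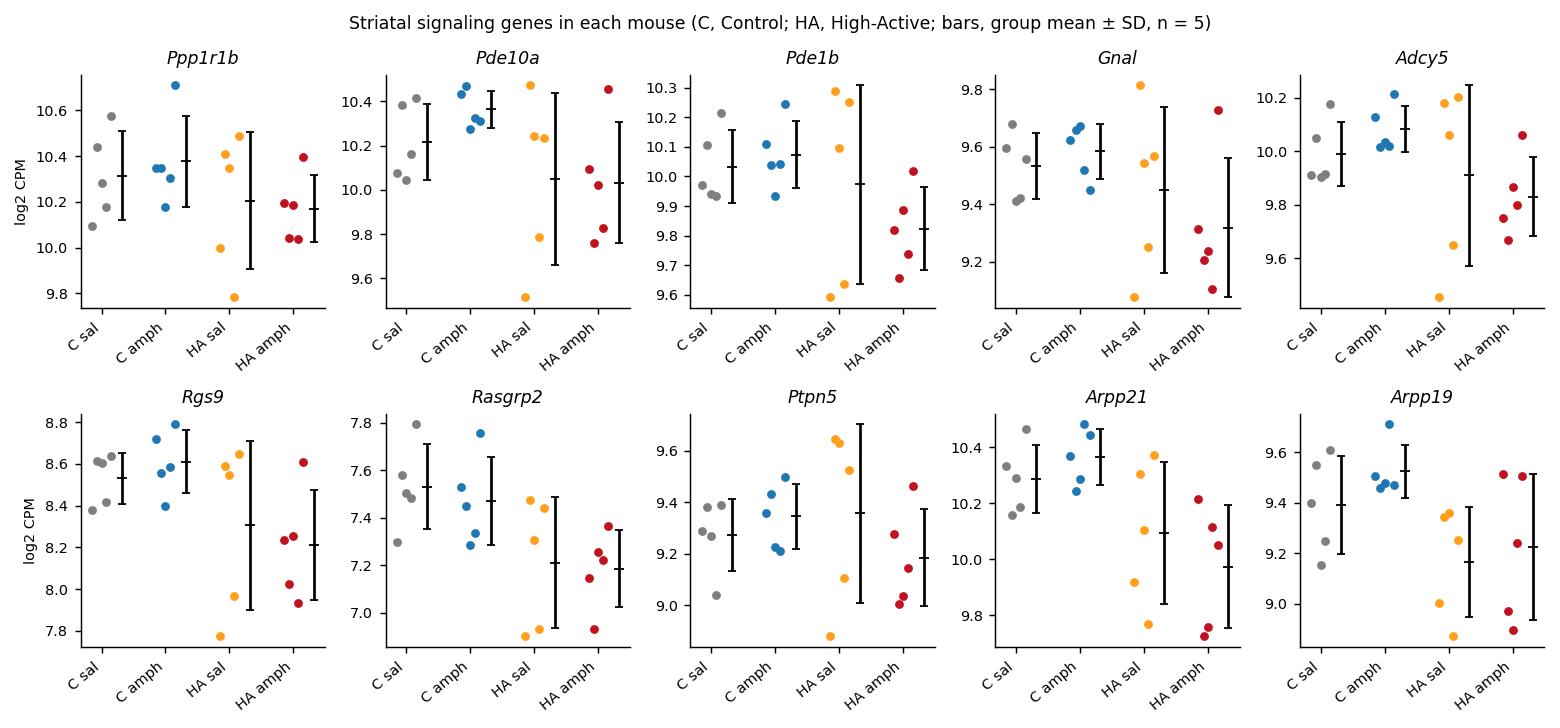
log2 CPM of each gene (panels) in each of the 5 mice of every group (points), with the group mean ± SD as bars. For Pde1b, Adcy5 and Rgs9 the High-Active saline mice split into 2 low mice (replicates 1 and 4) and 3 mice at the level of Control.

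The remaining members did not pass the test for the line difference, and the values follow by role. Gnal, the G protein subunit that couples dopamine D1 and adenosine receptors to adenylyl cyclase, had 682, 764 and 820 CPM as the lowest, median and highest of the Control mice and 539.9, 624 and 901 CPM of the High-Active mice. Its log2 difference was -0.16 ± 0.09 with an adjusted p of 0.258 (edgeR). Although 6 High-Active mice were below every Control mouse, 2 were above every Control mouse. Adcy5 had 957, 1044 and 1187 CPM in Control and 701, 913 and 1178 CPM in High-Active mice, and its log2 difference was -0.15 ± 0.08 with an adjusted p of 0.258 (edgeR).

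The phosphodiesterases break down the cyclic nucleotides that Adcy5 and its counterparts make. Pde10a had 1055, 1276 and 1417 CPM in Control mice and 732, 1065 and 1421 CPM in High-Active mice. Its log2 difference was -0.22 ± 0.11 with an adjusted p of 0.19 (edgeR), and 5 High-Active mice were below every Control mouse. Pde1b had 977, 1053 and 1212 CPM in Control and 772, 925 and 1251 CPM in High-Active mice, with a log2 difference of -0.14 ± 0.08 and an adjusted p of 0.301 (edgeR). For both genes the lines had their highest mice at nearly the same level and differed in their lowest.

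Ppp1r1b and Ptpn5 act on phosphorylation itself. Ppp1r1b had 1094, 1285 and 1676 CPM in Control and 881, 1168 and 1437 CPM in High-Active mice, with a log2 difference of -0.15 ± 0.09 and an adjusted p of 0.301 (edgeR). Ptpn5 had 526, 641 and 723 CPM in Control and 470.4, 593 and 800.2 CPM in High-Active mice. Of the High-Active mice, 3 were below and 3 were above every Control mouse. Its log2 difference was -0.02 ± 0.09 with an interval from -0.21 to 0.17 and an adjusted p of 0.903 (edgeR), the smallest difference among the members. Its sign turned positive in 7 of the alternative fits and in 3 of those that left out a mouse.

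**Figure D3:**
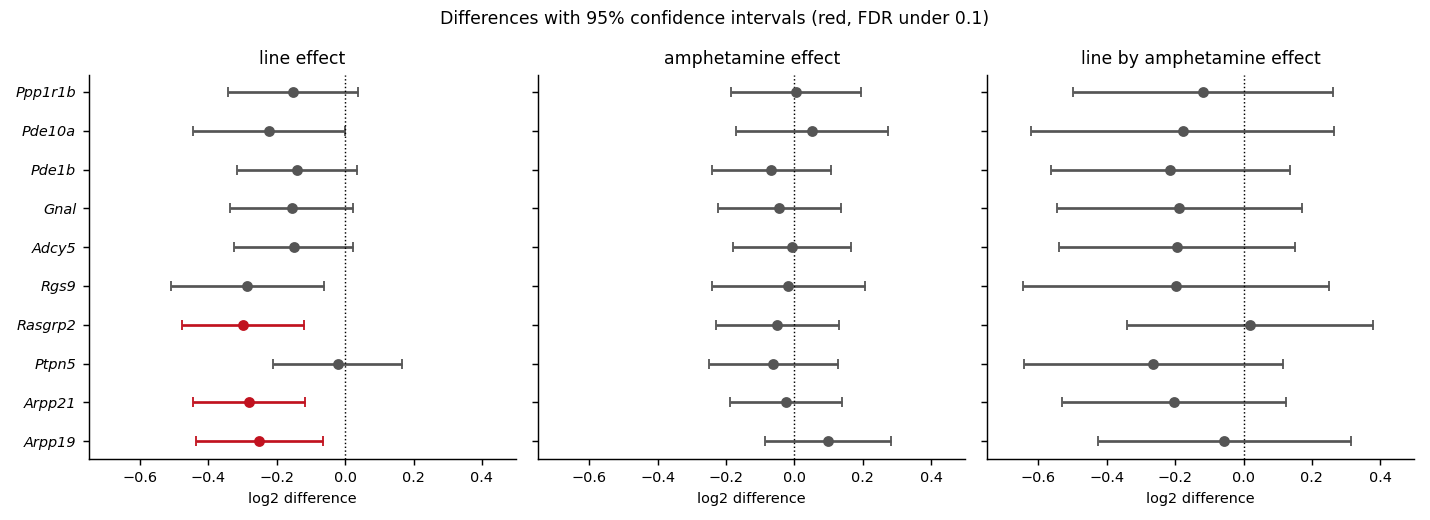
log2 difference of each gene with its 95% confidence interval for the line, amphetamine and line-by-amphetamine effects (panels), with genes called at FDR under 0.1 in red. Only Rasgrp2, Arpp21 and Arpp19 in the line effect are called, and every interval of the other effects spans 0.

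The spread between mice differed between the lines more than the means did. The within-group SD of log2 CPM was 0.14 in Control and 0.34 in High-Active mice for Rgs9, 0.11 and 0.27 for Gnal, and 0.10 and 0.26 for Adcy5. It was over 2 times larger in High-Active mice for 7 of the 10 members (Pde10a, Pde1b, Gnal, Adcy5, Rgs9, Ptpn5 and Arpp21), which is true of 7.73% of all genes tested. The median ratio of the SDs was 2.14 over the members and 1.11 over all genes. Ppp1r1b and Rasgrp2 had the smallest ratios, at 1.20 and 1.24. Among the 16 mice with a choroid plexus score under 3, the SD was over 2 times larger in High-Active mice for 2 members, Pde10a and Gnal (ratios of 2.06 and 2.30), against 7.87% of all genes. The median ratio was then 1.43 over the members and 1.05 over all genes, and the SD was smaller in High-Active mice for Ppp1r1b (0.65) and Rasgrp2 (0.78). The ratio for Rgs9 fell to 1.64. These ratios were looked at after the values had been seen and carry no test, and the genes share their mice.

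The wide spread came from the same mice for nearly every gene. High-Active saline replicate 1 had the lowest level of all 20 mice for 7 of the 10 members, and High-Active saline replicate 4 for 2 more, Ppp1r1b and Arpp19. High-Active saline replicates 1 and 4 and High-Active amphetamine replicate 2 were each among the lowest 5 of the 20 mice for all 10 members. High-Active amphetamine replicate 2 was the lowest of all for the remaining gene, Arpp21. No Control mouse was among the lowest 5 for more than 1 member. At the other end, High-Active saline replicates 2, 3 and 5 were among the lowest 5 for no member. High-Active saline replicates 3 and 4 had the same sire and dam labels and the same injection. Rgs9 was at 374 CPM in replicate 3 and 250.1 CPM in replicate 4, and Ptpn5 at 792 and 549.99 CPM.

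Marker scores of other cell types were set beside the libraries with low members. The choroid plexus marker score was 3.51 and 4.34 in High-Active saline replicates 1 and 4, and 2.21 in High-Active amphetamine replicate 2, against 0.58, 2.73 and 1.08 in High-Active saline replicates 2, 3 and 5. The scores and the member levels did not always go together, as Control saline replicate 3 had a score of 3.96 and was among the lowest 5 mice for 1 member. The astrocyte marker score was 7.74, 8.03 and 7.83 in the 3 low libraries and between 7.53 and 7.75 in Control mice, so the first of them was inside the Control range. Over the 20 mice with group means removed, r with the astrocyte score was below 0 for all 10 members, from -0.70 to -0.48 (rho from -0.77 to -0.28). No r passed the permutation test after adjustment over 80 relations (lowest adjusted p = 0.0684), while rho passed for Pde10a (-0.75, adjusted p = 0.004) and Gnal (-0.77, adjusted p = 0.00387). Without the 2 mice of most extreme score r was between -0.64 and -0.12. With the choroid plexus score r was from -0.64 to -0.20 and none passed (lowest adjusted p of r = 0.0559). Over the 16 mice alone r was from -0.76 to -0.08 with the astrocyte score and from -0.32 to 0.26 with the choroid plexus score. In the 16 mice whose choroid plexus score was under 3, no member was called, against 2.52% of all genes called lower. The log2 difference was then -0.22 for Rasgrp2 (adjusted p = 0.175), -0.18 for Arpp21 (adjusted p = 0.209) and -0.17 for Arpp19 (adjusted p = 0.258) by edgeR, while Ptpn5 stood at 0.10. With the choroid plexus score as a covariate in all 20 mice, Rasgrp2, Arpp21 and Arpp19 remained called (adjusted p = 0.0586, 0.0327 and 0.0914 by edgeR), against 5.37% of all genes. With the astrocyte score, Rasgrp2 and Arpp21 were called (adjusted p = 0.0673 and 0.0645 by edgeR) and Arpp19 was not (adjusted p = 0.149), against 4.8% of all genes. The part of these cells in the line differences was not tested beyond these fits.

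The members varied together from mouse to mouse. After the mean of each group was subtracted, Pearson's r of log2 CPM over the 20 mice lay between 0.42 and 0.97 in the 45 pairs of members, with a median of 0.76, and Spearman's rho lay between 0.33 and 0.92. By a permutation test within groups, 41 of the 45 r and 39 of the 45 rho had an adjusted p under 0.05. Leaving out the 2 mice farthest from the median kept r between 0.36 and 0.96. Pde1b and Adcy5 were the closest pair at r = 0.97. Arpp21 and Arpp19 were the least tied to the rest, with a median r of 0.62 each, and correlated most with each other at 0.76. With only the 16 mice of a choroid plexus score under 3, r of the 45 pairs lay between 0.02 and 0.93, with a median of 0.63. Values from the same libraries share depth and normalization, so these correlations describe the libraries.

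For each member the gene with the most similar pattern was sought among all genes tested. Over 20 mice with group means removed, the gene nearest to Ppp1r1b was Rasd2 (Rhes, a striatal small GTPase; r = 0.96), which was also nearest to Rasgrp2 (r = 0.95). Nearest to Adcy5 was Drd2, the D2 receptor (r = 0.97), and nearest to Pde10a was Pde7b, another phosphodiesterase (r = 0.96). Pde1b was nearest to Rgs9 (r = 0.93), and Fam102b, Sptbn4, Kalrn and Cnksr2 were nearest to Gnal (r = 0.95), Ptpn5 (r = 0.94), Arpp21 (r = 0.87) and Arpp19 (r = 0.89). Nearest to Pde1b was Adcy5. Arpp21 and Arpp19 thus had the lowest r with their nearest gene.

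A score was made from 13 medium spiny neuron markers, none of them a member, as their mean log2 CPM. It correlated with each member over the 20 mice after group means were removed, with r from 0.61 for Arpp21 (rho = 0.60) to 0.95 for Adcy5 (rho = 0.87). With p-values adjusted over the 80 relations of members with 8 marker scores, the permutation test within groups passed 0.05 for 9 members and not for Arpp21 (r adjusted p = 0.143). Once the 2 mice with the most extreme scores were dropped, r ran from 0.55 to 0.91. It ran over the 16 mice with a choroid plexus score under 3 from 0.30, again for Arpp21, to 0.87. The score itself was 7.54 ± 0.09 in Control and 7.45 ± 0.24 in High-Active mice (SD, n = 10 each), a difference of -0.09 with an adjusted p of 0.352 by a two-sided permutation test over the mice. The difference was -0.01 in the 16 mice (7.54 in Control and 7.53 in High-Active mice, adjusted p = 0.996 by permutation). None of the 13 markers was called between the lines. Its range was 7.40 to 7.68 in Control and 7.13 to 7.82 in High-Active mice, so the markers showed the same wider spread as the members.

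**Figure D4:**
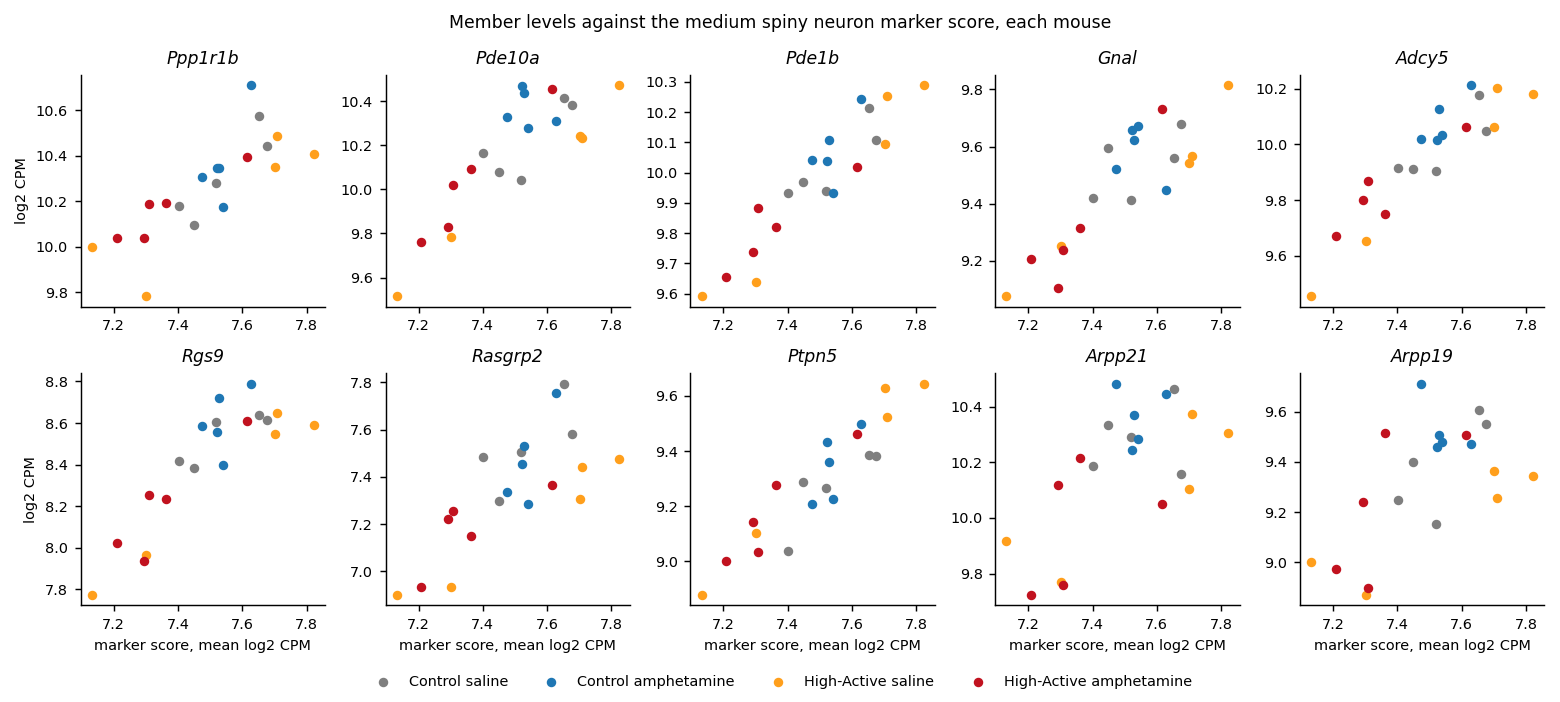
log2 CPM of each gene (panels, y axis) against the mean log2 CPM of 13 medium spiny neuron markers (x axis) in each mouse, colored by group. Pde1b, Adcy5 and Ptpn5 follow the score closely (r of 0.93 to 0.95 after group means were removed), and Arpp21 follows it least (r = 0.61).

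With the medium spiny neuron score as a covariate, 4 members were called lower in High-Active mice against 5.75% of all genes. They were Rasgrp2 (log2 difference -0.22, adjusted p = 0.0221), Rgs9 (-0.19, adjusted p = 0.0275), Arpp21 (-0.23, adjusted p = 0.0503) and Pde10a (-0.13, adjusted p = 0.0954), all by edgeR. Arpp19 was no longer called (-0.19, adjusted p = 0.122). With the score of 9 cortical excitatory neuron markers as a covariate, no member was called, against 1.53% of all genes called lower, and the oligodendrocyte score as a second covariate also left none, against 1.67%. Rgs9 and Pde10a kept their size in that fit at -0.28 and -0.21, whereas Arpp21 moved from -0.28 to -0.16 (adjusted p = 0.342, edgeR) and Arpp19 from -0.25 to -0.17. Rasgrp2 was at -0.26 (adjusted p = 0.241, edgeR). The cortical score was 4.61 ± 0.55 in Control and 3.97 ± 0.83 in High-Active mice, a difference of -0.64 that did not pass the permutation test (adjusted p = 0.149), and 3 of its 9 markers were called lower in High-Active mice. Arpp21 had the highest correlation with it among the members (r = 0.60, rho = 0.57, adjusted p of r = 0.081 by permutation, r = 0.49 once the 2 farthest mice were dropped). Arpp21 was also the only member whose correlation with the striatal interneuron score passed (r = -0.71, rho = -0.74, r adjusted p = 0.00596 by permutation, r = -0.67 without the 2 farthest mice).

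Scores of the other lists were compared between the lines in the same way. The microglia score was lower in High-Active mice by 0.15 (4.79 against 4.95, adjusted p = 0.02 by permutation), with 9 of 10 High-Active mice below the Control median. Of its 8 markers 3 were called lower. The means of P2ry12 and Tmem119 were slightly higher in High-Active mice (44.9 against 43.7 CPM and 23.2 against 22.6 CPM). The microglia score was lower in the 16 mice by the same size (-0.15, adjusted p = 0.0434 by permutation). The endothelial and pericyte score was higher there (0.18, adjusted p = 0.0434 by permutation). Of its 7 markers 1 was called in all 20 mice. Rgs5 rose most, from 67.3 CPM in Control to 104 CPM in High-Active mice, whereas Flt1 and Pdgfrb had lower means in High-Active mice. The differences were -0.05 for striatal interneurons, 0.14 for oligodendrocytes, 0.06 for astrocytes, 0.13 for endothelial cells and pericytes and 0.53 for choroid plexus, with adjusted p between 0.0935 and 0.389 by permutation. Of the 7 astrocyte markers 1 was called lower and 3 higher, so their score averages over opposite directions. Of the 10 oligodendrocyte markers 2 were called higher. Among all genes 6.9% were called lower and 7.63% higher. Among the 10 members, r with the microglia score ran from 0.08 to 0.58 and none passed after adjustment.

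The size of the line difference was then compared across fits. By a likelihood-ratio test with robust dispersions, run here, 6 members were called lower (Rasgrp2, Arpp21, Rgs9, Arpp19, Pde10a and Gnal), against 7.12% of all genes called lower by that test. The study used a test of this kind and reported far fewer genes between the lines, so these calls are not its results. The cause of that gap was not tested. DESeq2 called 4, adding Rgs9 (adjusted p = 0.056), against 9.01% of all genes called lower. limma-voom also called 4, against 6.23% of all genes when siblings formed a block and 6.78% when they did not. Other size factors (6.86% of all genes called lower), a filter of 5 mice (6.83%) and the non-legacy edgeR test (6.9%) called 3 members, and no filter on low counts called 2 (3.29%). When counts were summed over mice of the same parents, so that the 13 parent pairs were the units, Rgs9 (adjusted p = 0.0483), Arpp21 (adjusted p = 0.0395) and Rasgrp2 (adjusted p = 0.0635) were called by edgeR and Arpp19 was not (adjusted p = 0.254), against 2.14% of all genes called lower. The count of members called lower was 5 without High-Active saline replicate 2 (7.83% of all genes) and 6 without High-Active amphetamine replicate 5 (7.01%). It was 2 to 4 without any other mouse, and the share of all genes ran from 4.42% to 8.14% over the 20 fits. Across all 20 fits without 1 mouse, Rasgrp2 and Arpp21 stayed called, with adjusted p at most 0.0791 and 0.0702 (edgeR).

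**Figure D5:**
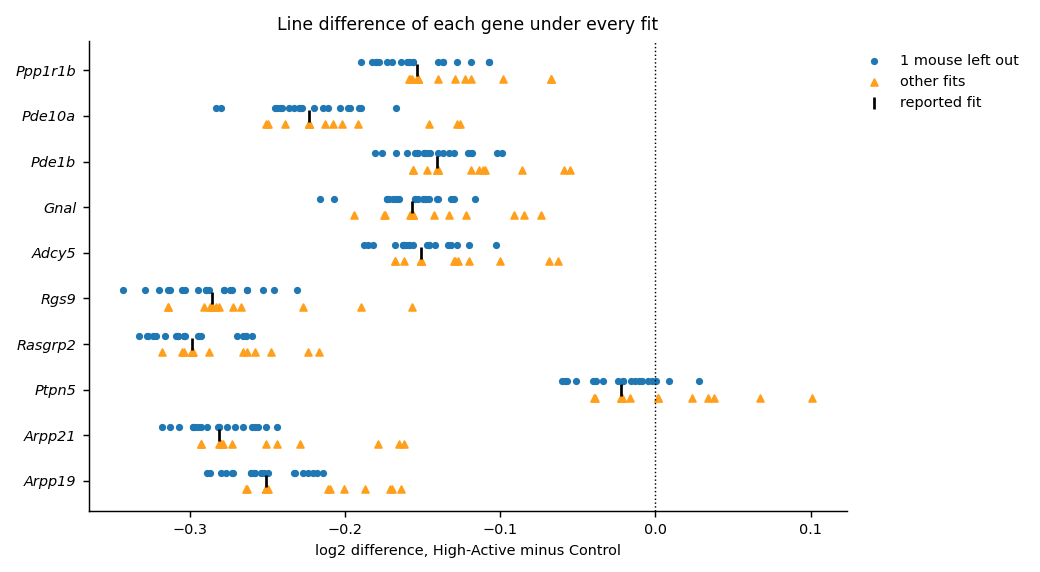
log2 difference between High-Active and Control mice (x axis) for each gene in the reported fit (black bars), in fits without 1 mouse (blue points) and in other fits (orange triangles). Ptpn5 lies on both sides of 0, and the other 9 genes stay below 0 in all of the fits shown.

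Within each treatment the line contrast called no member. In saline mice the adjusted p was lowest for Rasgrp2 (log2 difference -0.31 ± 0.12, adjusted p = 0.196, edgeR), and 1 member had an unadjusted p under 0.05, while 3.74% of all genes were called, 1.75% lower and 1.99% higher, and 17.4% had an unadjusted p under 0.05. In amphetamine mice the difference was more negative for 9 of the members, with a median of -0.26 against -0.11 in saline mice, and 6 members had an unadjusted p under 0.05. The lowest adjusted p there was 0.148, for Arpp21 at -0.38 ± 0.11 (edgeR), and 1.3% of all genes were called, 0.649% lower and 0.656% higher, with 12.6% at an unadjusted p under 0.05. Ptpn5 had opposite signs in the treatments, at 0.11 ± 0.13 in saline and -0.15 ± 0.13 in amphetamine mice. In the 16 mice with a choroid plexus score under 3 no member was called in either treatment. The median difference was then 0.08 in saline mice, with 3 of 10 members below 0, and -0.26 in amphetamine mice, with all 10 below 0. The saline value was taken without High-Active saline replicates 1 and 4, whose low levels of the members pull the High-Active saline mean down. Of all genes, 0.622% and 0.635% were called in these fits.

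The next comparison asked what a single dose of amphetamine did to these genes 2 h later. No member was called by edgeR, and none had an unadjusted p under 0.05. Of all genes tested, 0% were called and 12.5% had an unadjusted p under 0.05. DESeq2 and the likelihood-ratio test called none of the members either, although they called 391 and 458 genes in all. The log2 differences between amphetamine and saline mice lay between -0.07 for Pde1b and 0.10 for Arpp19, with a median of -0.02. The 95% confidence intervals of the members reached at most from -0.25 to 0.28, so larger average changes in either direction lay outside them. That fit held no marker score. Arpp19 was the largest of these differences at 0.10 ± 0.09, with 677 ± 89.8 CPM in Control saline, 739 ± 56.2 in Control amphetamine, 579.7 ± 84.9 in High-Active saline and 608 ± 120.2 CPM in High-Active amphetamine mice (SD, n = 5 each). Its groups overlapped in both lines. With the cortical score as a covariate the difference of Arpp19 was -0.00883. The cortical score was 4.35 ± 0.70 in Control saline and 4.865 ± 0.14 in Control amphetamine mice. It was 3.44 ± 0.45 in High-Active saline and 4.50 ± 0.80 in High-Active amphetamine mice (SD, n = 5 each). The part of these scores in the amphetamine differences was not tested beyond the covariate fits. In the 16 mice with a choroid plexus score under 3 no member was called, the median was -0.13 and 1 member had an unadjusted p under 0.05 (lowest adjusted p = 0.268, edgeR). The share of all genes at that unadjusted p is not given for the 16 mice.

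Siblings gave a closer look at amphetamine. In 6 parent pairs, 4 High-Active and 2 Control, both treatments were present. The mean difference between amphetamine and saline siblings lay between -0.14 for Arpp21 and 0.02 for Pde10a on the log2 scale. By a two-sided exact permutation test that flipped the signs of the 6 differences, the smallest unadjusted p was 0.312, for Pde1b, where 5 of 6 parent pairs were lower after amphetamine. The smallest p this design allows is 0.0312. The SD of the differences was 0.29 to 0.53, larger than any mean, and in 1 High-Active parent pair Rgs9 was 0.84 higher in the amphetamine sibling while in another it was 0.63 lower.

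The interaction compared the response to amphetamine between the lines. No member was called and none had an unadjusted p under 0.05, and 0% of all genes were called, with 2.97% at an unadjusted p under 0.05. The log2 interaction was below 0 for 9 of 10 members with a median of -0.19, against 0.00 for all genes. Its interval spanned 0 for each member and was wide, from -0.64 to 0.11 for Ptpn5, which had the largest value at -0.26 ± 0.18 (adjusted p = 1.00, edgeR). In Control mice 9 of the 10 values after amphetamine were above those after saline (log2 differences of -0.06 to 0.14), and in High-Active mice 9 of 10 were below (-0.19 to 0.07). Of all genes, 51.0% were below 0 in Control and 52.3% in High-Active mice. No member passed the test within either line, and the lowest adjusted p was 0.881 in Control and 0.744 in High-Active mice (edgeR). Of all genes, 6.35% in Control and 8.43% in High-Active mice had an unadjusted p under 0.05, and no member did. With the medium spiny neuron score as a covariate the interaction changed sign for 5 members. The mean of that score was 7.54 in both Control groups, 7.53 in High-Active saline and 7.36 in High-Active amphetamine mice. In the 16 mice with a choroid plexus score under 3 the interaction was below 0 for all 10 members, with a median of -0.33, and 4 had an unadjusted p under 0.05, but no member and 0% of all genes were called (lowest adjusted p of a member 0.735, edgeR). Within High-Active mice the median difference after amphetamine was then -0.27 instead of -0.11, and 5 members had an unadjusted p under 0.05. No member was called there (lowest adjusted p = 0.128, edgeR), against 0.178% of all genes. In Control mice the median difference was 0.07 with no unadjusted p under 0.05. The shares of all genes at an unadjusted p under 0.05 are not given for the 16 mice, so these member counts have no background. High-Active saline replicates 1 and 4, left out here, were among the lowest 5 mice for all 10 members. Leaving them out by itself raises the High-Active saline mean and lowers both the interaction and the High-Active difference after amphetamine.

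Genes that act with the members were counted from 7 lists, 88 genes in all, of which 87 were tested. Ppp1ca was listed at 0 in every mouse. A count of 0 can also arise where reads are not assigned to a gene, so it is not read here as absence. Which of these held for Ppp1ca was not tested. In the line effect 14 were lower and 1 was higher in High-Active mice, which is 17.2% of those tested against 14.5% of all genes. The count moved with the mice and the fit, and so did that of all genes. It was 7 (8.05%) without High-Active amphetamine replicate 2, when 9.36% of all genes were called, and 8 (9.2%) without High-Active saline replicate 4 or Control saline replicate 5, when 9.53% and 9.48% were called. It was 23 (26.4%) without High-Active saline replicate 2, against 16.7% of all genes, and 1 (1.15%) with the cortical score as a covariate, against 3.08%. None was called for amphetamine or for the interaction.

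The calcium and calmodulin list had 5 of 14 genes called, all lower. Of all genes, 6.9% were called lower and 7.63% higher, which is the background for this and the following lists. The calls named are those of the main fit, and which of them held in the other fits is not given here. Camkk1, a kinase that activates CaM kinases, was at 126 ± 11.0 CPM in Control and 103 ± 11.6 CPM in High-Active mice (log2 difference -0.31 ± 0.06, adjusted p = 0.00411, edgeR). Pcp4, a modulator of calmodulin, was at -0.34 ± 0.09 and Camk2b, a subunit of CaM kinase II, at -0.19 ± 0.05, with adjusted p of 0.0272 and 0.0305 (edgeR). The calmodulin gene Calm2 was lower by a log2 difference of -0.15 ± 0.04 (adjusted p = 0.0425, edgeR), and Calm3 was the fifth. The calmodulin genes encode the same protein from similar transcripts.

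Of 7 other adenylyl cyclases, Adcy9 (log2 difference -0.29 ± 0.08, adjusted p = 0.0302, edgeR) and the calmodulin-stimulated Adcy1 (-0.49 ± 0.15, adjusted p = 0.0551, edgeR) were lower in High-Active mice. Adcy1 is also abundant in cortex and was at 406 ± 112 CPM in Control and 298 ± 107 CPM in High-Active mice. Among 14 G protein genes and partners of Rgs9, Gnaz, an inhibitory subunit, and Rgs7bp, which anchors Rgs9 at the membrane, were lower (log2 differences -0.17 ± 0.05 and -0.23 ± 0.08, adjusted p = 0.0563 and 0.0875, edgeR). Rgs7bp was at 491 ± 58.2 CPM in Control and 420 ± 69.4 CPM in High-Active mice. Of the 9 genes of protein kinase A and CREB none was called, and the lowest adjusted p was 0.308 (edgeR).

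Of 14 genes of phosphatases and their regulators, 2 were called. Ppp3ca, the catalytic subunit of calcineurin, which removes the protein kinase A phosphate from DARPP-32, was at 1805 ± 149.8 CPM in Control and 1571 ± 185 CPM in High-Active mice (log2 difference -0.20 ± 0.07, adjusted p = 0.0685, edgeR). Ppp1r1a, an inhibitor of protein phosphatase 1 related to DARPP-32, was lower by the same size (-0.20 ± 0.07, adjusted p = 0.0807, edgeR). Of 19 genes of Ras, Rap and the MAP kinases, Nras and Map2k1 were lower (log2 differences -0.18 ± 0.06 and -0.09 ± 0.03) and Fyn, a kinase opposed by STEP, was higher at 0.09 ± 0.03, with adjusted p between 0.053 and 0.0666 (edgeR). The 10 activity-induced target genes, among them Fos, Arc and Egr1, gave no call. After amphetamine their log2 differences, averaged over both lines, lay between -0.17 for Fosb and 0.29 for Arc, with standard errors of 0.16 to 0.34. Their median difference was 0.29 in Control mice, with 0 of 10 below 0, and -0.16 in High-Active mice, with 8 of 10 below 0. The interaction was below 0 for all 10 with a median of -0.48, and none was called in these contrasts. Of all genes, 51.0% were below 0 in Control mice, 52.3% in High-Active mice and 49.5% in the interaction. The 10 genes share their mice, so their signs are not separate observations.

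The activity of each mouse in its home cage, measured again before the injection, ran from 0.1998 to 0.4742 km per day in Control and from 0.5833 to 3.18 km per day in High-Active mice. The lines did not overlap, so the relation with the members was taken within each line. Over the 10 Control mice r lay between -0.28 and 0.30 (rho from -0.39 to 0.22), and over the 10 High-Active mice between -0.08 and 0.46 (rho from -0.49 to 0.33). No r or rho passed the permutation test, with the adjusted p of r at 0.957 in all 20 relations. Once the 2 mice with the most extreme activity were dropped, r ranged from -0.26 to 0.47 in Control and from -0.59 to 0.37 in High-Active mice.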

How the data were processed

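RNA from the striatum of 20 mice was sequenced with 1 library per mouse. The deposited files hold raw read counts per gene, which the authors made with CASAVA 1.8.2, TopHat2 2.0.10, Bowtie2 2.1.0, SAMtools 0.1.19 and HTSeq 0.6.1 on Ensembl annotation 75 (GRCm38). Closing rows naming no gene held 16.0% to 17.5% of reads and were left out. Symbols were found for 37607 of 39179 identifiers, and precision rests on the spread between mice. Total gene counts were 32388971 to 53710713 per mouse.

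Counts were scaled by TMM, genes over 1 CPM in at least 3 mice were kept, and edgeR 4.0.16 (legacy quasi-likelihood test, R 4.3.3) was fitted to all 20 mice with 4 group means. Calls used an FDR under 0.1 over all genes tested in each contrast. log2 CPM used a prior count of 2. The study used a likelihood-ratio test with robust dispersions, which was an alternative here beside DESeq2 1.42.0 and limma 3.58.1. The fits were tested on simulated counts. Marker scores are mean log2 CPM of a list, compared by permutation (100000 resamples, Benjamini-Hochberg over 8 lists). Gpr52 and Slc18a3 were not matched. Exons came from GENCODE M21.

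The members and lists were chosen with earlier results of these data known. All members were named, with called pathway genes up to 4 per list by adjusted p. Calm3 was added after its value was seen. The values of 1 called pathway gene are not reported here. Separate mice are the replicates, but siblings are not independent.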

Additional observations from a re-analysis of the deposited data

Results flagged for a closer look

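In 72 groups of 5 values, made of the members and the marker scores, 3 single mice stood apart by Dixon's test (gap over range above 0.71). Chance flags about 1 in 20 such groups. Arpp19 was 9.71 log2 CPM in Control amphetamine replicate 4 against 9.46 to 9.51 in the other mice of the group (ratio 0.816). The cortical excitatory neuron score was 5.11 in Control amphetamine replicate 2 against 4.76 to 4.84 (ratio 0.785). The endothelial and pericyte score was 4.49 in Control saline replicate 1 against 4.67 to 4.73 (ratio 0.781).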

How the results depend on the processing

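In the line effect 3 members were called with RLE size factors, a filter of 5 mice, the non-legacy test or the choroid plexus score as a covariate. The count was 6 by the likelihood-ratio test and 0 with the cortical score, with the cortical and oligodendrocyte scores, or in mice with a choroid plexus score under 3. It ran from 2 to 6 when 1 mouse was left out. The 87 pathway genes gave 15 calls (14.5% of all genes), and 9 without a filter on low counts (7.25%), 1 with the cortical score or with both scores (3.08% and 3.24%), 8 with the astrocyte score (9.52%), 1 in mice with a choroid plexus score under 3 (5.01%), 3 with counts summed over siblings (4.12%) and 7 to 23 without 1 mouse (9.36% to 17.2%). The fits with choroid plexus and astrocyte scores, the choroid plexus limit and the non-legacy test were chosen after seeing the data. The cause of these shifts was not tested.

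The line difference of Ptpn5 changed sign, to 0.00151 by the likelihood-ratio test, 0.0233 with the cortical score, 0.0337 with both scores, 0.0676 with the medium spiny neuron score, 0.00198 with the choroid plexus score, 0.0378 with the astrocyte score and 0.101 in mice with a choroid plexus score under 3, and it ran from -0.0599 to 0.0284 without 1 mouse. The amphetamine difference of Ppp1r1b became -0.0222 by the likelihood-ratio test, -0.0325 with the cortical score, -0.0501 with both scores, -0.0136 with the choroid plexus score and -0.0941 under the choroid plexus limit, where Pde10a became -0.0809. With the medium spiny neuron score it became 0.0369 for Pde1b, 0.0473 for Gnal, 0.0978 for Adcy5, 0.112 for Rgs9, 0.0433 for Rasgrp2, 0.0516 for Ptpn5 and 0.0366 for Arpp21. Under limma-voom Adcy5 was at 0.00528 when siblings formed a block and 0.00566 when they did not, and Arpp19 was at -0.00883 with the cortical score. Without 1 mouse the amphetamine difference ran from -0.0407 to 0.0446 for Ppp1r1b, -0.00917 to 0.108 for Pde10a, -0.103 to 0.00601 for Gnal, -0.0527 to 0.0296 for Adcy5, -0.0747 to 0.0245 for Rgs9 and -0.0578 to 0.0122 for Arpp21. With the medium spiny neuron score the interaction was 0.0628 for Ppp1r1b, 0.0648 for Pde10a, 0.0109 for Adcy5, 0.0574 for Rgs9 and 0.0728 for Arpp19. For Rasgrp2 it was -0.00456 by the likelihood-ratio test, -0.018 with the cortical score, -0.0364 with both scores, -0.0588 with the astrocyte score, -0.163 under the choroid plexus limit and -0.0503 to 0.0969 without 1 mouse. For Arpp19 it ran from -0.129 to 0.0208 without 1 mouse.

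By replicate number, no paired analysis was possible because the numbers were given in accession order and pair no mice. Siblings given different injections were compared by parent pair in the report.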
